A study of Mus musculus with 20 samples.

Results

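The genes described here are 8 identity genes of Kupffer cells (KC), the resident macrophages of the liver: Clec4f, Vsig4, Timd4, Cd5l, Marco, Id3, Spic and Folr2. They were found by symbol, each in 1 row, in a table of RNA sequencing values for 59311 genes. They were measured in cells sorted from the liver as Ly6C hi and Ly6C lo, which the study calls monocyte-derived macrophages (MoMac). KC were not sorted as a population of their own, and whether some were among the sorted cells was not tested. Ly6C hi and Ly6C lo MoMac of the same mouse were compared, and mice given Ac-6-FP were compared with mice given its vehicle within each subset.

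All 10 mice were C57BL/6 animals (C57BL/6 J in the study's methods) aged 10 to 12 weeks that carried a liver fibrosis caused by CCl4, a liver toxin, given at 0.6 ml/kg 2 times per week over 4 weeks. Mice 11 to 15 received the vehicle (1% DMSO in buffer), and mice 16 to 20 received Ac-6-FP at 0.25 mg/kg, a ligand of MR1 that does not activate mucosal-associated invariant T (MAIT) cells. Both were given first 2 h before the last CCl4 injection and then daily, until livers were collected 2 days after that injection. No mouse without CCl4 is among the libraries. The sort took CD11b and F4/80 positive cells that lacked Ly6G, CD11c and CD3, and split them by Ly6C. Tim-4, the protein made from Timd4, was the stain that set KC apart in the flow cytometry of the study and is not named among the markers of this sort. Each mouse gave 1 library of each subset, so that 4 groups of 5 libraries were compared.

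KC descend from embryonic precursors and renew themselves in the sinusoids, where they take up bacteria, dying cells and old erythrocytes from the blood. Their identity genes encode surface receptors and a few transcription factors. When KC are lost during injury, monocytes can enter the niche and take on most of this programme over time, with Timd4 known as a late and incomplete acquisition. In the fibrotic liver, Ly6C hi MoMac derive from recently recruited monocytes and Ly6C lo MoMac are regarded as the restorative population.

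Values are normalized counts, which are read counts on a gene divided by 1 size factor per library and not by gene length. Libraries held between 5693049 and 18682437 reads on genes. A value of 0 allows up to 3 reads (counting error only), which correspond to 1.87 to 6.26 normalized counts depending on the library. Exact 0 values also occurred in genes of high level: of 6652 genes with a median of at least 100 across libraries, 21 to 870 were listed at 0 in 19 libraries. The Ly6C lo library of vehicle mouse 13 stood apart, with 2765 such genes at 0 and 5343 genes above 0, against 9017 to 15766 in the others. Several results that rest on it are also given without this mouse. The labels held: Ly6c2, which encodes Ly6C, was lower in the Ly6C lo library of all 10 mice (log2 difference -3.46 ± 0.19 SE, limma adjusted p = 6.4e-07), while Adgre1, which encodes F4/80, was above 0 in all 20 libraries.

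Clec4f (GSMG0033254, chr6:83644542-83656117), Vsig4 (GSMG0042698, chrX:96247203-96293440), Timd4 (GSMG0005103, chr11:46810798-46844333) and Cd5l (GSMG0024491, chr3:87357879-87371074) lie on the minus, minus, plus and plus strand of mm10. Marco (GSMG0002006, chr1:120474538-120505024), Id3 (GSMG0027236, chr4:136143822-136145392), Spic (GSMG0004435, chr10:88674774-88683026) and Folr2 (GSMG0036345, chr7:101839988-101857200) lie on the minus, plus, minus and minus strand. All are protein coding, and the values count reads on constitutive exonic regions. In GENCODE M21, 7 of the genes overlap no other gene. Folr2 overlaps an antisense transcript (Gm10602) and a processed pseudogene (Gm45319) on the other strand, and no source used here says that reads were counted by strand, so that its values may include theirs.

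Upstream sequences are shown for Marco, the gene whose subset difference passed the test, for Spic, a transcription factor gene found in 17 of 20 libraries, and for Timd4, the gene whose protein defines KC by flow cytometry and which was at 0 in most libraries. Each is the 250 bases before the RefSeq start (GRCm38.p6, 5′ to 3′ on the gene's strand), and none overlaps an exon of GENCODE M21. By the gene bounds of the deposited table, the last 3 bases shown for Spic and the last 1 for Timd4 lie inside the gene. Capitals mark matches to TGCTGA, the core of the site bound by Maf factors, or to CANNTG, the E box whose partner factors Id proteins sequester.
Marco, chr1:120505025-120505274, minus strand: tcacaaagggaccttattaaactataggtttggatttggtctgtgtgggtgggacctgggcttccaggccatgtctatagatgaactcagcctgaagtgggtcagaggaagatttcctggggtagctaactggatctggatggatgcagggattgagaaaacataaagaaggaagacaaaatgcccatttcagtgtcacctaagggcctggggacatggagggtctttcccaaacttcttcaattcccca
Spic, chr10:88683024-88683273, minus strand: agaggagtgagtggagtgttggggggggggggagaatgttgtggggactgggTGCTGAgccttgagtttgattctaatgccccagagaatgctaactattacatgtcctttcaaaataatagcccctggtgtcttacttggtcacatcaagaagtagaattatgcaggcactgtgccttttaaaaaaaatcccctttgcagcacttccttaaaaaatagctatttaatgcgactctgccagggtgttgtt
Timd4, chr11:46810549-46810798, plus strand: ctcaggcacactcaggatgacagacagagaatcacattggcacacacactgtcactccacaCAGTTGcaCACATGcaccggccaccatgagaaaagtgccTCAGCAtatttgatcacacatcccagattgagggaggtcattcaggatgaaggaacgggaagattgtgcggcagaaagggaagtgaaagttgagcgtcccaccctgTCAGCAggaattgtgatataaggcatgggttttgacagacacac

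Motifs were searched on both strands in these windows, in the 9 windows of the 8 genes (Folr2 has 2 starts) and in all 32851 promoters. TGCTGA was found in 6 of the 9 windows, against 16.1% of all promoters, and CANNTG in 4 of 9, against 66.2%. The site TGANTCA of AP-1 was found in 1 of 9 windows (6.75% of all promoters). GAGGAAGT, the site of PU.1 and Spi-C, was in none (2.44%), and neither was GGCGCC, an element bound by SMAD proteins after BMP signals (9.59%). In 1 Folr2 window TGANTCA and CANNTG overlapped, and in both Folr2 windows TGCTGA and CANNTG overlapped. The Marco window held no match to any of the 5 motifs, and Spic held 1 TGCTGA. These are letter matches in a short window and say nothing of binding.

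Most KC identity genes were at 0 in most libraries of MoMac. Of 160 values (8 genes in 20 libraries) 79 were 0, and 81 rested on more than 3 reads. Id3 was above 0 in all 20 libraries and Spic in 17 of 20. The other 6 genes, which all encode receptors or secreted proteins, were above 3 reads in 44 of 120 values: in 14 of 60 among Ly6C hi and 30 of 60 among Ly6C lo libraries. Without mouse 13, vehicle mice gave 5 of 24 in Ly6C hi and 11 of 24 in Ly6C lo. More of the 8 genes passed 3 reads in the Ly6C lo than in the Ly6C hi library of 8 mice, fewer did in mouse 13, and as many did in mouse 14. Among all genes of the table, too, more were above 0 in the Ly6C lo library of every mouse except mouse 13. From the Ly6C hi to the Ly6C lo library this number went from 14606 to 15723 in mouse 11 and from 11096 to 11156 in mouse 18. In mouse 13 it went from 9749 to 5343. The counts of identity genes thus followed a direction shared by all genes in most mice, and how much of them goes with it was not tested.

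**Figure D1:**
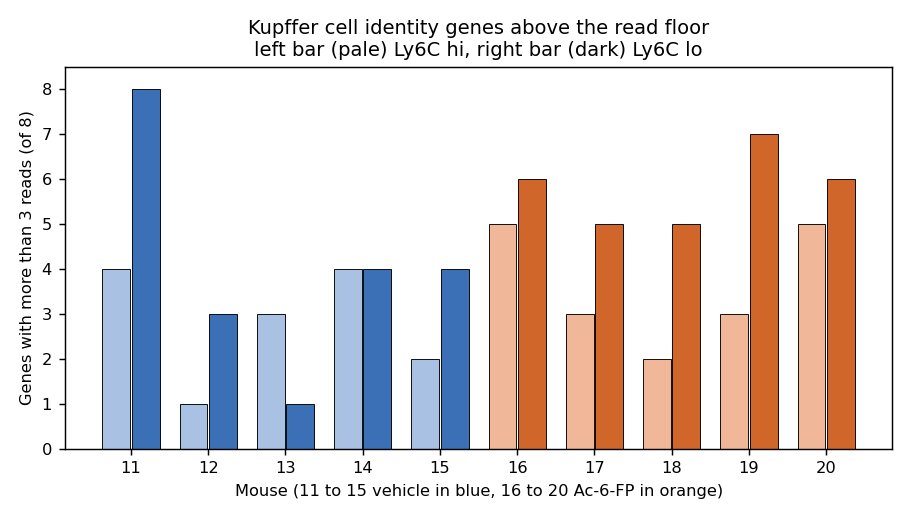
Number of the 8 Kupffer cell identity genes with more than 3 reads in the Ly6C hi (pale, left bar) and Ly6C lo (dark, right bar) library of each mouse, with vehicle mice in blue and Ac-6-FP mice in orange. The count ran from 1 in the Ly6C hi library of mouse 12 and the Ly6C lo library of mouse 13 to 8 in the Ly6C lo library of mouse 11.

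Per kilobase of merged exon in GENCODE, Id3 had the highest mean level in Ly6C lo MoMac, at 1791 ± 955 normalized counts per kb (SD, n = 10). Spic followed at 112 ± 63.7 and Marco at 56.9 ± 66.8 normalized counts per kb. Vsig4 (42.7 ± 46.3), Folr2 (34.7 ± 51.6), Cd5l (27.3 ± 32.8) and Clec4f (12.9 ± 22.1) came next, and Timd4 was lowest at 2.59 ± 7.18 normalized counts per kb. From Spic down to Timd4, the means of neighbours in this order differed by less than the larger of their SDs. In Ly6C hi MoMac the first 2 places were the same, Id3 at 961 ± 350 and Spic at 26.5 ± 21.9 normalized counts per kb, and the medians of the other 6 genes were 0. Since the authors counted constitutive regions whose lengths are not given here, this order is approximate.

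**Figure D2:**
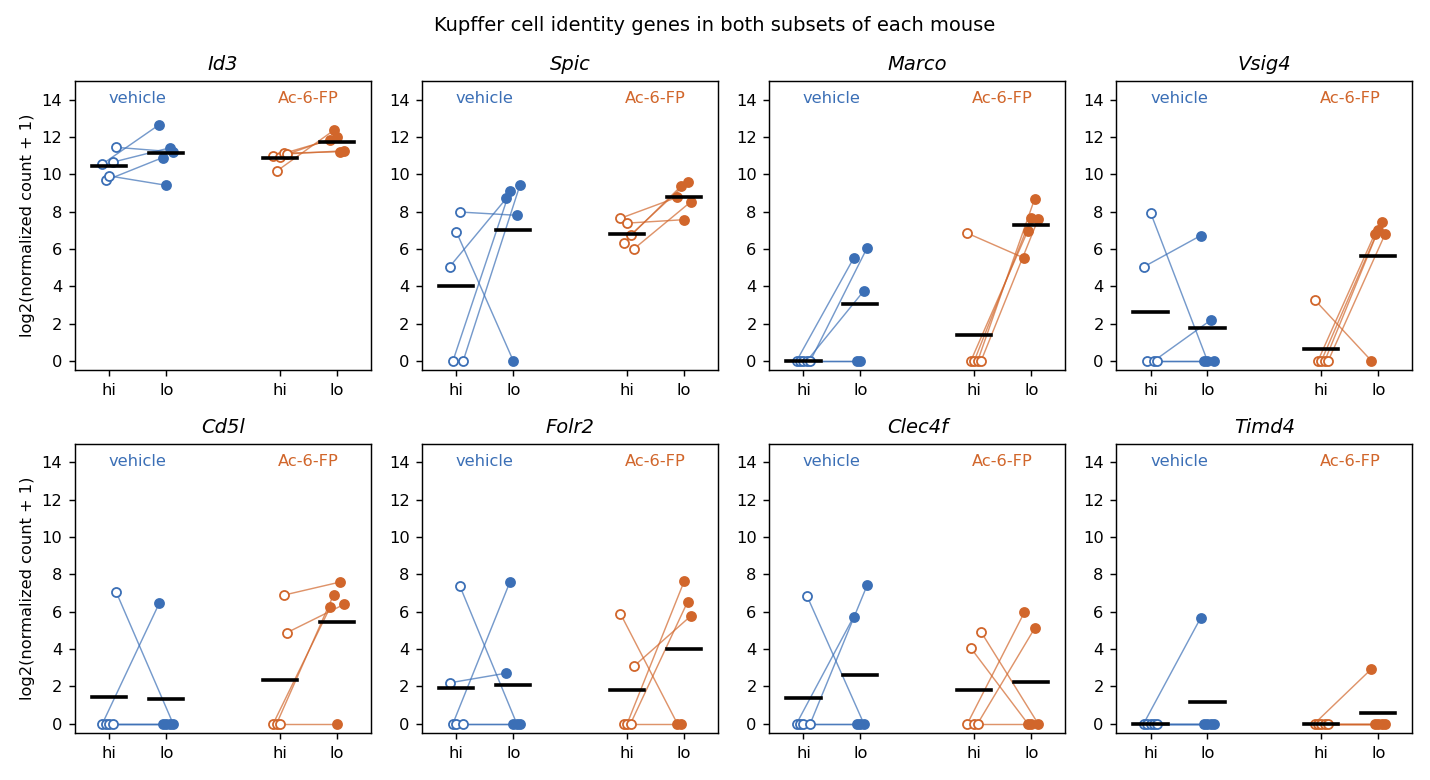
Normalized counts of the 8 genes on the log2(value + 1) scale in the Ly6C hi (open) and Ly6C lo (filled) libraries, vehicle in blue and Ac-6-FP in orange, with lines joining both libraries of a mouse and black bars at the group means. Id3 was present throughout, Spic was higher in the filled point in 8 of 10 mice, and Timd4 stayed at 0 in 18 libraries.

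Marco was the only KC identity gene whose level differed between the subsets by the test. It encodes a scavenger receptor that binds bacteria and particles. In Ly6C hi MoMac of vehicle mice Marco was 0 in all 5 libraries. In their Ly6C lo MoMac it was 44.1 in mouse 11, 0 in mice 12 and 13, 12.5 in mouse 14 and 66.2 in mouse 15. This is 8.54-fold higher in the mean with the Ly6C hi libraries set to their floor of 3 reads each. The floor allows for counting error only, so that this value is no lower bound.
In Ly6C hi MoMac of Ac-6-FP mice Marco was 114 in mouse 16 and 0 in mice 17 to 20. In their Ly6C lo MoMac it was 44.5, 125, 204, 409 and 190 in mice 16 to 20. Mouse 16 was thus the only mouse with more Marco in the Ly6C hi library, in 7 mice the Ly6C lo library was higher, and in mice 12 and 13 both were 0. The mean was 11.4 ± 35.9 for Ly6C hi and 109 ± 129 for Ly6C lo cells (SD, n = 10). On the scale log2(normalized count + 1) the within-mouse difference was 4.49 ± 1.07 (SE; limma adjusted p = 0.0330), and an exact sign-flip test over the 10 mice gave an unadjusted two-sided p = 0.0156.

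Marco was 1 of 7 identity genes tested that passed an adjusted p of 0.05, all others did not, and of all 17248 genes tested 3.41% passed as higher in Ly6C lo. The call did not hold in edgeR on the recovered reads (adjusted p = 0.107), and it was lost when mouse 11, 14, 15, 17, 18, 19 or 20 was left out (adjusted p 0.0828 to 0.105). Over all 19 alternatives the adjusted p ranged from 0.00498 to 0.215 and passed in 9, while the difference stayed positive. Timd4 was not tested because its mean reached 10 in none of the 4 groups. Clec4f, Vsig4 and Marco reached it in 3 groups, and Cd5l, Id3, Spic and Folr2 in all 4.

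Spic and Id3, the transcription factor genes, gave higher mean values in Ly6C lo MoMac without passing the test. Spic encodes an ETS factor related to PU.1 that red pulp macrophages and other iron-recycling macrophages need. Spic values in Ly6C hi MoMac were 31.9, 0, 120, 251 and 0 in mice 11 to 15 and 199, 80.2, 166, 107 and 63.3 in mice 16 to 20. Those in Ly6C lo MoMac were 420, 555, 0, 222 and 699 in mice 11 to 15 and 435, 651, 189, 766 and 369 in mice 16 to 20. The Ly6C lo library was higher in 8 mice and lower in mice 13 and 14, and the ranges of the subsets overlapped. Mean values were 102 ± 84.2 and 431 ± 245 (SD, n = 10), a difference of 2.48 ± 1.36 on the log2 scale (SE; limma adjusted p = 0.383). The exact sign-flip test gave p = 0.146. Without mouse 13, whose Ly6C lo library stood apart, the difference was 3.73 (limma adjusted p = 0.0416), and this was the only 1 of 19 alternatives in which Spic passed.

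Id3 encodes a helix-loop-helix protein that binds E proteins without binding DNA, and KC development is known to require it. It was by far the most abundant of the 8 genes. Id3 values in Ly6C hi MoMac were 1501, 817, 962, 1606 and 2791 in mice 11 to 15 and 1988, 1152, 1965, 2242 and 2179 in mice 16 to 20. Those in Ly6C lo MoMac were 6498, 1908, 680, 2731 and 2361 in mice 11 to 15 and 3694, 5229, 4149, 2371 and 2455 in mice 16 to 20. The Ly6C lo library was higher in 8 mice and lower in mice 13 and 15. Id3 averaged 1720 ± 627 in Ly6C hi cells and 3208 ± 1710 in Ly6C lo cells (SD, n = 10), a within-mouse log2 difference of 0.78 ± 0.28 (SE; limma adjusted p = 0.166). The exact sign-flip test, not adjusted for other genes, gave p = 0.0234. Without mouse 13 the log2 difference was 0.92 (limma adjusted p = 0.0746).

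The remaining receptor genes were patchy in both subsets. Vsig4 encodes a complement receptor that captures opsonised particles from blood. In vehicle mice it was 31.9, 0, 246, 0 and 0 in Ly6C hi and 104, 0, 0, 3.56 and 0 in Ly6C lo MoMac of mice 11 to 15. In Ac-6-FP mice it was 8.74, 0, 0, 0 and 0 in Ly6C hi and 0, 112, 129, 174 and 110 in Ly6C lo MoMac of mice 16 to 20. The subsets overlapped in vehicle mice, whereas in mice 17 to 20 Vsig4 was found in Ly6C lo MoMac and was 0 in Ly6C hi MoMac. The difference over all mice was 2.07 ± 1.26 (log2, SE; limma adjusted p = 0.441), and 2.96 without mouse 13 (limma adjusted p = 0.181).

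Cd5l encodes a secreted scavenger protein that macrophages release into blood. Ly6C hi MoMac had Cd5l at 133 in mouse 15, 117 in mouse 19 and 28.3 in mouse 20 and 0 in the other 7 libraries. Ly6C lo MoMac had it at 87.4 in mouse 11 and 0 in mice 12 to 15, and 74.7, 119, 0, 192 and 82.6 in mice 16 to 20. The difference between subsets was 1.48 ± 1.20 (log2, SE; limma adjusted p = 0.559).

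Clec4f encodes a C-type lectin that mice express almost solely on KC. It was above 0 in 3 Ly6C hi libraries (highest 115) and 4 Ly6C lo libraries (highest 171), with a difference of 0.84 ± 1.49 (log2, SE; limma adjusted p = 0.787). Folr2, which encodes a folate receptor of resident macrophages, was above 0 in 4 Ly6C hi libraries (highest 166) and 5 Ly6C lo libraries (highest 196), with a difference of 1.17 ± 1.51 (limma adjusted p = 0.699). Timd4, which encodes a phosphatidylserine receptor for dying cells, was 0 in all 10 Ly6C hi libraries. In Ly6C lo MoMac it was 49.7 in mouse 11 and 6.62 in mouse 16 and 0 in the other 8. Mouse 11 was the only mouse with all 8 genes above 3 reads in a library. With no filter on low values, which brings in Timd4, all 8 log2 differences were above 0, with a median of 1.32 beside 0.07 for all genes of that fit, and none passed the test.

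Within vehicle mice no identity gene passed the test between subsets, where 2.35% of all genes did, and within Ac-6-FP mice none did, where 2.94% of all genes did. At an unadjusted p under 0.05 limma counted 0 of 7 identity genes in vehicle mice, beside 14.0% of all genes, and 3 of 7 in Ac-6-FP mice (Marco, Id3 and Vsig4), beside 13.0%. edgeR called none and counted 1 and 2 at that threshold, beside 8.15% and 6.86% of all genes. Marco differed by 3.06 ± 1.52 in vehicle mice (log2, SE; limma adjusted p = 0.402) and by 5.92 ± 1.52 in Ac-6-FP mice (limma adjusted p = 0.0686). Without the pairing of libraries by mouse, the second passed (limma adjusted p = 0.0201), as it did without mouse 16 (adjusted p = 0.0142) and with a filter at a mean of 100 (adjusted p = 0.0496). Vsig4 differed by -0.82 ± 1.79 in vehicle mice (limma adjusted p = 0.898) and by 4.96 ± 1.79 in Ac-6-FP mice (limma adjusted p = 0.229). Without mouse 13 the log2 difference in vehicle mice turned to 0.97.

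Ac-6-FP was then compared with vehicle within each subset, which asks whether MAIT cell inhibition goes with other levels of KC identity genes in MoMac. No identity gene passed the test in Ly6C hi MoMac, where 0.0754% of all genes did, and none passed in Ly6C lo MoMac, where 0.0522% did. These shares stand for 13 and 9 genes, which became 133 and 103 without mouse 11 and 0 and 0 without mouse 12. At an unadjusted p under 0.05 limma counted 0 and 1 of 7 identity genes (Marco in Ly6C lo), beside 8.73% and 9.31% of all genes. edgeR called none and counted 1 and 0 at that threshold, beside 8.93% and 9.36%. Libraries of Ac-6-FP mice held more detected genes: the median was 13622 against 9749 in Ly6C hi and 14084 against 10379 in Ly6C lo MoMac. The median log2 change of all genes tested was 0.35 in Ly6C hi and 0.91 in Ly6C lo. Without mouse 13 these medians were 0.29 and 0.35. Changes below are also given relative to the medians with all mice, and those in Ly6C lo thus rest on mouse 13.

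In Ly6C lo MoMac the largest log2 changes among the identity genes were those of Marco (4.22 ± 1.40 SE, 3.31 relative to the median gene), Cd5l (4.13 ± 1.86, relative 3.22) and Vsig4 (3.84 ± 1.89, relative 2.93). Their limma adjusted p-values were 0.528, 0.534 and 0.551. The mean of Marco was 7.92 times that of vehicle mice, or 6.34 times without mouse 13. Exact permutation tests of 5 against 5 mice, not adjusted, gave p = 0.0159 for Marco, 0.127 for Cd5l and 0.0794 for Vsig4, where the smallest p possible is 0.00794. Marco values nevertheless overlapped, since mouse 16 (44.5) lay below vehicle mouse 15 (66.2). Each of the 3 genes was above 0 in 4 or 5 of the 5 Ac-6-FP libraries and in 1 to 3 of the vehicle libraries. Of the 30 values of the 6 sparse genes in each group, 19 were above 3 reads in Ac-6-FP mice and 11 in vehicle mice (11 of 24 without mouse 13), beside 8 and 6 of 30 in Ly6C hi MoMac. With genes detected per library as a covariate, the log2 changes in Ly6C lo were 2.68 for Marco, 2.45 for Cd5l and 2.78 for Vsig4, each with a limma adjusted p of 0.912.

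Folr2 (1.93 ± 2.13), Spic (1.74 ± 1.68), Id3 (0.62 ± 0.53) and Clec4f (-0.41 ± 2.02) also did not pass in Ly6C lo MoMac (log2 change ± SE), with limma adjusted p-values of 0.668, 0.621, 0.613 and 0.954. Relative to the median gene Id3 was at -0.29 and Clec4f at -1.33. Timd4 was 49.7 in 1 vehicle library and 6.62 in 1 Ac-6-FP library. The sign for Id3, Spic and Clec4f turned under some alternatives. Without mouse 13 the log2 change of Spic was -0.0126. Its ratio of means was then 1.02 against 1.27 with all mice, and that of Id3 was 1.06 against 1.26. For Ly6C hi cells Spic had the highest change (2.84 ± 1.66, relative 2.49; limma adjusted p = 0.651) and Vsig4 the lowest (-1.94 ± 1.69, relative -2.29; limma adjusted p = 0.687). Spic was 0 in vehicle mice 12 and 15, whereas all 5 Ac-6-FP mice had at least 63.3. The other 5 tested genes changed by -0.12 to 1.37 on the log2 scale in Ly6C hi MoMac. These values rested on single libraries and on the tool: Vsig4 was at -0.60 without mouse 13, and Spic at 1.84 without mouse 12 or 15. In edgeR Spic was at 0.64, Vsig4 at -4.89 and Marco, found in 1 of these libraries, at 7.76, and none passed.

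Whether the change with Ac-6-FP differed between subsets was tested on the within-mouse differences. No identity gene passed, and neither did any other gene (0% of 17248), with 840 genes (4.87%) and 1 of 7 identity genes (Vsig4) at an unadjusted p under 0.05 in limma, and edgeR also called none. For Vsig4 the difference between the changes was 5.78 ± 2.53 (log2, SE; limma adjusted p = 0.830), and for Marco it was 2.85 ± 2.15 (adjusted p = 0.830).

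**Figure D3:**
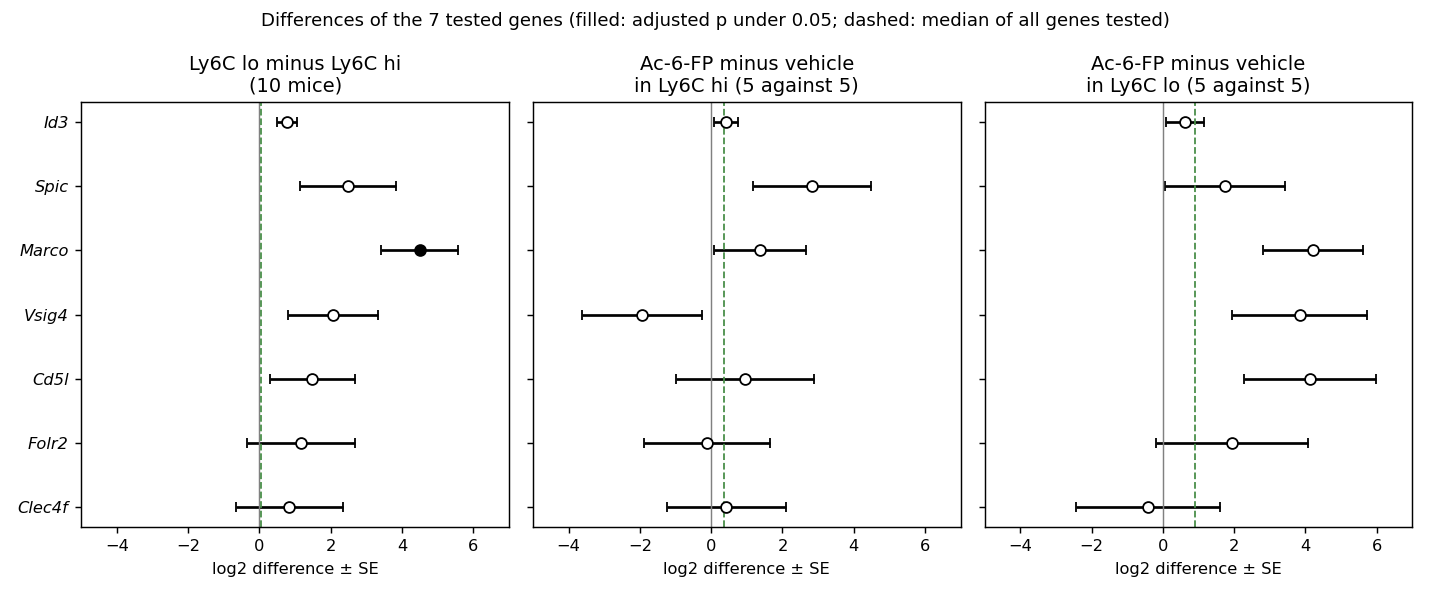
Log2 differences of the 7 tested genes with their standard errors: Ly6C lo minus Ly6C hi over 10 mice (left), Ac-6-FP minus vehicle in Ly6C hi (middle) and in Ly6C lo (right), 5 against 5 mice. The filled point, Marco at 4.49 between subsets, passed an adjusted p of 0.05, open points did not, and the dashed line is the median of all genes tested (0.91 in the right panel).

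Further genes of the KC programme were followed by 2 lists. Of 16 further KC genes 10 were tested between subsets: 2 passed as higher in Ly6C lo MoMac, none passed as lower, and 7 of the 10 differences were above 0, with a median of 0.47 beside 0.03 for all genes tested. Il18bp, which encodes a protein that neutralises the cytokine IL-18, was at 0 in 8 of 10 Ly6C hi libraries and ranged from 0 to 344 (median 58.0) in Ly6C lo, a log2 difference of 4.34 ± 0.93 (SE; limma adjusted p = 0.0171). It also passed within Ac-6-FP mice (5.86 ± 1.31, limma adjusted p = 0.0344), where 9 of 19 alternatives kept the call and the adjusted p ranged from 0.0203 to 0.303. Within vehicle mice Il18bp did not pass (2.82 ± 1.31, limma adjusted p = 0.364). The call within Ac-6-FP mice was lost in edgeR, with no filter, with a pseudocount of 0.1 and without mouse 11, 15, 16, 17, 18 or 19. Mrc1, which encodes the mannose receptor CD206, ranged from 0 to 38.7 in Ly6C hi and from 0 to 529 (median 149) in Ly6C lo, a log2 difference of 4.58 ± 1.16 (limma adjusted p = 0.0423), which was the highest of the list. In edgeR the adjusted p-values were 0.113 for Il18bp and 0.0548 for Mrc1, so that neither passed. Il18bp was also lost without mouse 11, 16 or 17 (adjusted p 0.0538 to 0.0565), and Mrc1 without any mouse other than 13, 14 or 18 (adjusted p 0.0699 to 0.133).

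Slc40a1, the iron exporter ferroportin, gave 3.17 ± 0.92 (log2, SE; limma adjusted p = 0.0770). The lowest difference was that of Fcna, a ficolin of the lectin complement pathway, at -3.19 ± 1.16 (limma adjusted p = 0.175). Clec1b, a lectin that KC share with platelets, had -1.85 ± 0.82 (limma adjusted p = 0.274), the opposite sign to Marco. The KC genes C6, Slc16a9 and Pcolce2 were at 0 in all 20 libraries. Hmox1, the heme oxygenase that frees iron from heme, was above 0 in all 20 libraries and differed by 0.04 ± 0.25 (limma adjusted p = 0.949).

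Of 10 regulators of KC identity, 1 (Nr1h3) passed as higher in Ly6C lo MoMac, and 2 of the 10 differences were above 0, with a median of -0.99 beside 0.03 for all genes tested. Nr1h3 encodes LXRα, the oxysterol receptor that drives KC identity together with other signals of the niche. It ranged from 0 to 313 (median 182) in Ly6C hi and from 401 to 2610 (median 1084) in Ly6C lo MoMac, and it was higher in Ly6C lo in 10 of 10 mice. The log2 difference was 3.76 ± 0.55 (SE; limma adjusted p = 0.00150), and it passed in 19 of 19 alternatives. The subsets did not overlap, since the lowest Ly6C lo library (401) was above the highest Ly6C hi library (313). Nr1h3 also passed within vehicle mice (4.75 ± 0.78, limma adjusted p = 0.00670), though not in edgeR (adjusted p = 0.0571), and did not pass within Ac-6-FP mice (2.77 ± 0.78, limma adjusted p = 0.102).

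Hes1, a target of the Notch signal that starts the KC programme in monocytes, had 2.05 ± 0.62 (limma adjusted p = 0.0939), and Id1, the relative of Id3, had -0.81 ± 0.27 (limma adjusted p = 0.127). No gene of either list passed for Ac-6-FP against vehicle in either subset.

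Markers of other cells also differed between the subsets. In bulk libraries fewer cells of a type and less RNA per cell cannot be told apart. Of 4 T and NK cell genes tested 3 were higher in Ly6C lo (Nkg7, Ncr1 and Klrb1c). The summed level of the list was 0 to 589 in Ly6C hi and 22013 to 48853 in Ly6C lo libraries, there mostly Nkg7 and Klrb1c. The CD3 genes of the list did not follow. Cd3d had means of 22.55 in Ly6C hi and 32.79 in Ly6C lo (limma adjusted p = 0.572), and Cd3e was at 0 in 18 of 20 libraries. Of 6 dendritic cell genes 2 (Flt3 and Ccr7) were higher in Ly6C lo, with sums of 0 to 358 and 892 to 11451. Of 5 B cell genes 1 (Cd79a) was higher, with sums of 80.2 to 743 and 0 to 1284. Of 4 peritoneal macrophage genes tested 1 (Alox15) was higher in Ly6C lo, with sums of 369 to 769 and 1517 to 22248, while Gata6, their defining factor, was above 0 in 1 of 20 libraries. Of 6 neutrophil genes 2 (Ngp and Camp) were higher and 1 (Mpo) lower in Ly6C lo, with sums of 3510 to 9469 and 343 to 23815.

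Of 8 genes of liver sinusoidal endothelial cells, the neighbours of KC, 2 (Clec4g and Oit3) were higher in Ly6C lo MoMac, with sums of 1271 to 3780 in Ly6C hi and 1430 to 3750 in Ly6C lo. Clec4g had a median of 99.2 and Oit3 of 129 in Ly6C lo and of 0 in Ly6C hi, whereas Stab2 and Kdr were above 0 in 2 and 3 of 20 libraries. Of 6 hepatocyte genes tested 2 (Apoa1 and Apoa2) were higher in Ly6C lo, with sums of 3973 to 11467 and 6644 to 12800. Most of the endothelial sum was Fcgr2b (means 2103 and 2301 in Ly6C hi and Ly6C lo) and most of the hepatocyte sum was Trf (6497 and 6289), so that these sums say little of the other genes. Alb, the albumin gene, had means of 274 and 516 and did not pass (2.01 ± 0.80, limma adjusted p = 0.219). The 6 Ly6C hi monocyte genes were all lower in Ly6C lo (sums 100242 to 202278 against 8613 to 31533). Of 7 patrolling monocyte genes 4 (Ace, Treml4, Cd36 and Eno3) were higher in Ly6C lo, with sums of 3393 to 20457 and 14154 to 62845. The summed level of the 8 KC identity genes, most of it Id3, was 817 to 2924 in Ly6C hi and 680 to 7261 in Ly6C lo libraries. Of the 24 marker genes called between subsets, 14 passed in all 19 alternatives. Clec4g, Oit3 and Ace did not pass in edgeR (adjusted p = 0.0991, 0.0731 and 0.109). Clec4g was also lost without mouse 12, 14, 15, 16 or 19, Camp without mouse 12, 14, 15, 17, 18, 19 or 20, Apoa1 without mouse 17 and Ace without mouse 20. For Ac-6-FP against vehicle in Ly6C lo, median log2 changes of the lists of other cells ran from 0.05 (hepatocytes) to 2.81 (neutrophils). The median of the 7 tested KC identity genes was 1.93. The part of these other cells in the difference of Marco and in the changes with Ac-6-FP was not tested.

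**Figure D4:**
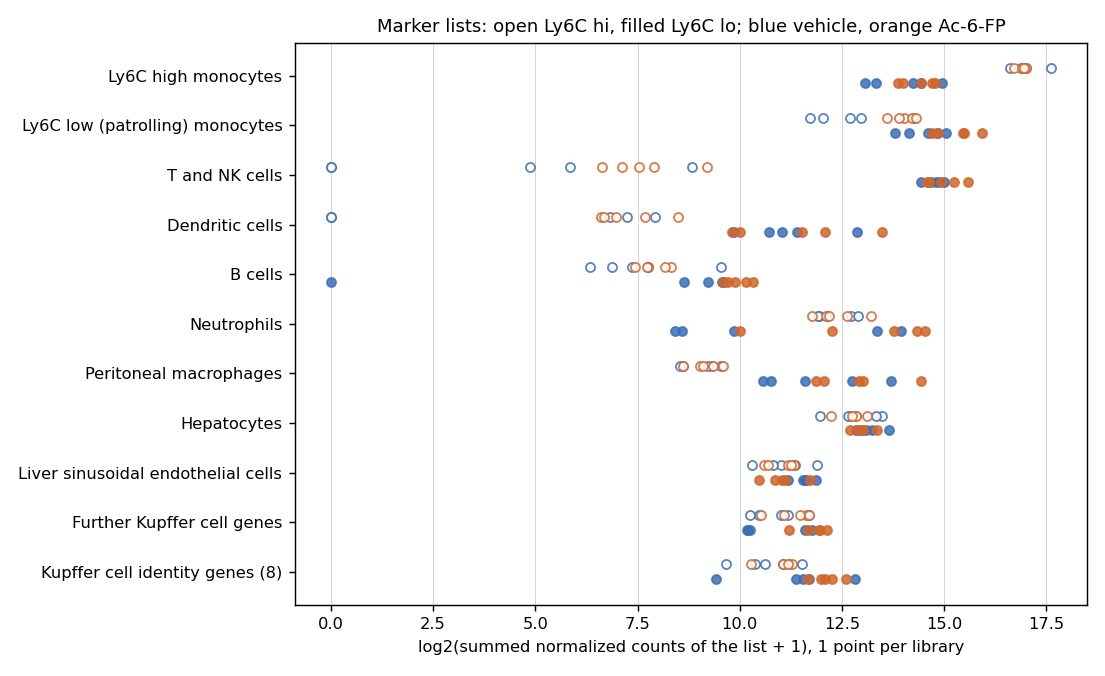
Summed normalized counts of each marker list on the log2(sum + 1) scale, 1 point per library, for Ly6C hi (open) and Ly6C lo (filled) MoMac, with vehicle in blue and Ac-6-FP in orange. The T and NK cell list, whose sum in Ly6C lo was mostly Nkg7 and Klrb1c, separated the subsets fully (at most 589 against at least 22013). The sums of the 8 Kupffer cell identity genes overlapped.

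The identity genes were then compared with each other over the 10 Ly6C lo libraries, each log2 value centred on its treatment group. Of 21 pairs of the 7 tested genes 16 had a Pearson correlation above 0. None passed a permutation test with 100000 resamples adjusted over the 21 pairs, for Pearson's r (lowest adjusted p = 0.430) or for Spearman's rho (lowest adjusted p = 0.744), and none had an unadjusted p under 0.05. Id3 and Spic had the highest value (r = 0.70, permutation p = 0.0520; rho = 0.22, permutation p = 0.535). Without the 2 libraries farthest from the median of Id3 the value was r = -0.13, so that it rested on those libraries, of which mouse 13 had Spic at 0 and the lowest Id3 value. Marco and Spic had r = 0.54 (permutation p = 0.102) and rho = 0.50 (permutation p = 0.139), and r = 0.72 without the 2 libraries farthest from the median of Marco.

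Over all 20 libraries, the 5 genes outside the lists whose log2 level was most like the mean standardised level of the 7 tested genes were Anpep (r = 0.86), Eif1 (0.86), Atp1b1 (0.85), Leng8 (0.85) and Evl (0.84). This is a description over libraries that share subset, mouse and depth. Anpep, which encodes a surface aminopeptidase, was above 0 in 8 libraries, with a median of 0 in Ly6C hi and of 152 in Ly6C lo MoMac. Eif1, a translation initiation factor, was above 0 in all 20 libraries, with medians of 3585 and 5013.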

How the data were processed

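RNA from sorted Ly6C hi and Ly6C lo MoMac of 10 mice was sequenced by the authors with reads of 75 bases (low-input kit, polyA RNA), aligned with STAR 2.4.0 to mm10, counted on constitutive regions of FAST DB genes and normalized with DESeq2. The deposited signal values are counts divided by 1 size factor per library, on a linear scale with 2 decimals, called normalized counts here. Libraries were grouped by the labels' number, subset and treatment. Both libraries of a number came from 1 mouse by labels and methods. The correlation between deviations of same-mouse libraries had a median of 0.0338 (0.0033 to 0.25). For different mice it was -0.0032 (-0.1145 to 0.129), so that the ranges overlapped.

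Whole reads were recovered from the step of each library (99.98% of values above 0 within 0.006). The step of 1 library (Ly6C hi of mouse 15) lies at 0.989, close to 1, so edgeR was also run without this mouse. The depth was 5693049 to 18682437 reads, and a value of 0 allows 3 reads by counting error only. No libraries held identical values.

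Values were analysed as log2(normalized count + 1) with limma 3.58.1 in R 4.3.3, for 17248 genes with a mean of at least 10 in 1 group or more, and 7 of the 8 genes were among them. Subsets were compared on within-mouse differences and treatments as 5 against 5 mice, with Benjamini-Hochberg adjustment over all genes tested and a threshold of 0.05. The fits were also run on simulated counts in which only genes of higher mean level were changed. Those runs say nothing of the tests on the sparse genes among the 8. Exact sign-flip tests over 10 mice (smallest p 0.00195) and exact permutation tests were two-sided. Differences on the log2(value + 1) scale depend on the pseudocount where many values are 0. The difference of Marco between subsets was 6.80 with a pseudocount of 0.1 and 2.32 with 10. Its ratio of means was 9.63, so that the log2 differences of such genes are not log2 ratios of means. Per-kb levels used merged exons of GENCODE M21. Promoters came from RefSeq (GRCm38.p6, the build of the files), all 8 genes being matched. Python 3.11.15, numpy 2.4.6, pandas 2.3.3 and scipy 1.17.1 were used.

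The 8 genes and the lists of further KC genes, regulators and markers were chosen with earlier results of these data known. The result of 1 listed regulator is not reported here. Named are the 8 genes, other list genes that passed a comparison or were highest or lowest, sorting genes and the 5 most similar genes. Slc40a1, Clec1b, Hmox1, Hes1, Id1, C6, Slc16a9, Pcolce2, Stab2, Kdr, Gata6, Fcgr2b, Trf, Alb, Cd3d and Cd3e were named after their values were seen. Alternatives were pseudocounts of 0.1 and 10, no filter, a filter at 100, quantile normalization, a covariate for genes detected, no pairing, edgeR 4.0.16 (quasi-likelihood, TMM) and each mouse left out. edgeR without mouse 15 was added after seeing the data.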

Additional observations from a re-analysis of the deposited data

Results flagged for a closer look

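In groups of 5 libraries, 1 library lay far from the other 4 on the log2 scale in 11 of 29 groups of values. The limit used is one that chance passes in about 1 in 20 groups of normally distributed values. These values hold many zeros, and a gene found in a single library of a group always passes it, so that 1 in 20 is no measure of chance here.

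Single positive libraries accounted for 7 of these. In Ly6C hi MoMac these were Clec4f in vehicle mouse 14 (115), Cd5l in vehicle mouse 15 (133), Vsig4 in Ac-6-FP mouse 16 (8.74) and Marco in Ac-6-FP mouse 16 (114). In Ly6C lo MoMac they were Timd4 (49.7) and Cd5l (87.4) in vehicle mouse 11 and Timd4 in Ac-6-FP mouse 16 (6.62). In each the other 4 libraries were at 0.

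A library lay below the other 4 in the remaining groups. In Ly6C lo MoMac of Ac-6-FP mice, Vsig4 was 0 in mouse 16 against 110 to 174, and Cd5l was 0 in mouse 18 against 74.7 to 192. Spic was 0 in the Ly6C lo library of vehicle mouse 13 against 222 to 699, the library with the fewest genes detected. Id3 was 1152 in the Ly6C hi library of Ac-6-FP mouse 17 against 1965 to 2242.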

How the results depend on the processing

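Between the subsets, the number of identity genes called was 1 (Marco). It was 0 with no filter on low values, in edgeR and in edgeR without mouse 15, and 0 to 2 when 1 mouse was left out. It was 2 without mouse 13 (Marco and Spic), 1 without mouse 12 or 16, and 0 without any of the others. Within Ac-6-FP mice the number was 0, and it was 1 (Marco) with a filter at 100, 1 with no replicate block (no pairing by mouse) and 0 to 1 when 1 mouse was left out. The number in the other comparisons was 0 under every alternative run, and the block changed no other call of these genes. Of 21 pairs of identity genes 16 had r above 0, and 18 did without the 2 farthest libraries. Over all genes, calls between subsets numbered 900, against 511 in edgeR, 392 in edgeR without mouse 15 and 1688 with the covariate for genes detected. For Ac-6-FP, 13 and 9 genes were called in Ly6C hi and Ly6C lo, and 0 in both in edgeR and with quantile normalization. When 1 mouse was left out the numbers ranged from 0 to 133 and from 0 to 103, both highest without mouse 11.

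Over all 10 mice the 7 tested genes kept a positive subset difference under all alternatives run, which for Clec4f, Cd5l and Folr2 leave out the filter at 100. With Ac-6-FP in Ly6C lo, the change of Spic turned to -0.73 and that of Id3 to -0.0032 with the covariate, and Spic was between -0.0126 and 2.35 when 1 mouse was left out. Clec4f turned to 0.57 in edgeR without mouse 15 and ranged from -1.35 to 0.79 when 1 mouse was left out. In Ly6C hi, Clec4f turned to -0.0651 with a pseudocount of 10, -0.54 with quantile normalization, -1.30 in edgeR and -1.63 in edgeR without mouse 15, and ranged from -0.36 to 1.79 when 1 mouse was left out. Cd5l turned to -0.38 with the covariate and ranged from -0.19 to 2.35, and Folr2 ranged from -1.14 to 1.25, when 1 mouse was left out. Between subsets in vehicle mice, Vsig4 turned to 0.0443 with quantile normalization, 0.55 in edgeR and 0.60 in edgeR without mouse 15, and ranged from -1.57 to 0.97 when 1 mouse was left out. The cause was not tested. Exact 0 values in 76 of 120 values of the 6 sparse genes limit their comparisons.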
